A study of Homo sapiens with 6 samples.

Results

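The BCL2 family apoptosis regulators were followed in T24, an established cell line of human bladder cancer, treated with ox-LDL, which is low-density lipoprotein, the main cholesterol carrier of plasma, in oxidized form. A gene was taken as a member where the platform annotation gave its probe set the symbol MCL1, BCL2, BCL2L1, BCL2A1, BCL2L11, PMAIP1, BBC3, BAX, BAK1 or BID. Of these 10 genes, 9 had a probe set, each exactly 1, out of 17687 named genes on the arrays. BBC3, which encodes the BH3-only protein PUMA, had none under that symbol and was not analysed here. The 9 comprised 4 pro-survival genes and 5 pro-death genes.

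The ox-LDL group held 3 arrays of cells exposed for 24 h to 20 µg/mL ox-LDL, and the vehicle group held 3 arrays of cells exposed for 24 h to vehicle. Both groups were grown with 10% serum and then kept serum-free for 12 h before treatment, so the vehicle cells also lacked serum. The comparison asked which transcripts changed with ox-LDL. No label states whether the 3 arrays of a group came from separate cultures, so the p-values describe only the spread between these arrays, and that spread may be technical.

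Proteins of the BCL2 family decide whether the outer membrane of mitochondria stays intact. The effectors BAX and BAK1 can assemble into pores that release cytochrome c and so start the caspase cascade. Pro-survival proteins such as BCL2, BCL-xL (from BCL2L1), MCL1 and BFL-1 (from BCL2A1) hold the effectors in check by binding them or their activators. BH3-only proteins such as BIM (from BCL2L11), NOXA (from PMAIP1) and BID bind the pro-survival proteins in a groove, and BIM and the cleaved form of BID can also activate the effectors directly.

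Values are log2 expression as the authors deposited them, after robust multi-array average (RMA), and differences are ox-LDL minus vehicle. Array medians ran from 7.11 to 7.18. Vehicle replicate 3, the third vehicle array, differed most from the rest, with correlations across probe sets of 0.979 to 0.988 with the others, against 0.992 to 0.997 among the other 5 arrays. Where leaving it out changed the call of a member or moved its difference by over 1.5 times, both values are given. The 95th percentile of the 612 negative control probe sets was 5.12 to 5.28 by array. Of 11 urothelial and epithelial markers, 8 lay above it on all 6 arrays, among them KRT7, KRT8 and KRT18, while the urothelial differentiation genes UPK1B and UPK3A did so on none. Of the markers of other cell types, 3 of 5 leukocyte, 3 of 4 endothelial and 4 of 5 fibroblast genes lay above it on all 6 arrays, COL1A2 and CD68 among them. PTPRC, HLA-DRA, KDR and LUM did so on no array. The summed log2 values ran from 27.9 to 28.2 with ox-LDL and from 28.5 to 30.4 with vehicle for leukocyte markers, from 22.9 to 23.2 and from 22.8 to 24.5 in the same order for endothelial markers, and from 29.9 to 30.4 and from 30.5 to 32.4 for fibroblast markers. None of these markers passed the test between the groups with all 6 arrays. Without the third vehicle array, 1 leukocyte marker and 1 urothelial or epithelial marker passed. The part of the markers in the results was not tested. A description label named siRNA against G9a in place of ox-LDL, whereas the G9a gene EHMT2 read 8.34, 8.26 and 8.06 with ox-LDL and 8.005, 7.91 and 7.63 with vehicle (log2 values), so it was not lower with ox-LDL.

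With ox-LDL, BCL2L11 rose. This gene of the BH3-only activator BIM was 1.56-fold higher. The signal of BCL2A1, which encodes the pro-survival protein BFL-1, passed the test downward but stayed under that percentile of the control probe sets on 5 of 6 arrays, so the size of its change could not be measured. The other 7 members did not pass the test (limma with Benjamini-Hochberg adjustment over 21448 probe sets, called under 0.05). Thus 2 of 9 members passed, where 6.77% of all probe sets did: 1 upward, against 3.48%, and 1 downward, against 3.29%. At an unadjusted p under 0.05 there were 6 of 9, against 26.1%. Fewer cells expressing a gene and less RNA per cell cannot be told apart in such bulk samples. The study's own selection (p of 0.001 or less, change of 1.5-fold or more), applied to the unadjusted p, also took 2 of the 9, against 2.31% of all probe sets. They were BCL2L11 and BCL2A1, the latter on a difference of dim values that is not a measured size of change. The arrays of the groups did not overlap for 6 of 9 members, 4 with ox-LDL above and 2 with ox-LDL below. Of all probe sets, 36.8% did not overlap, 19.1% with ox-LDL above and 17.7% with ox-LDL below.

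**Figure D1:**
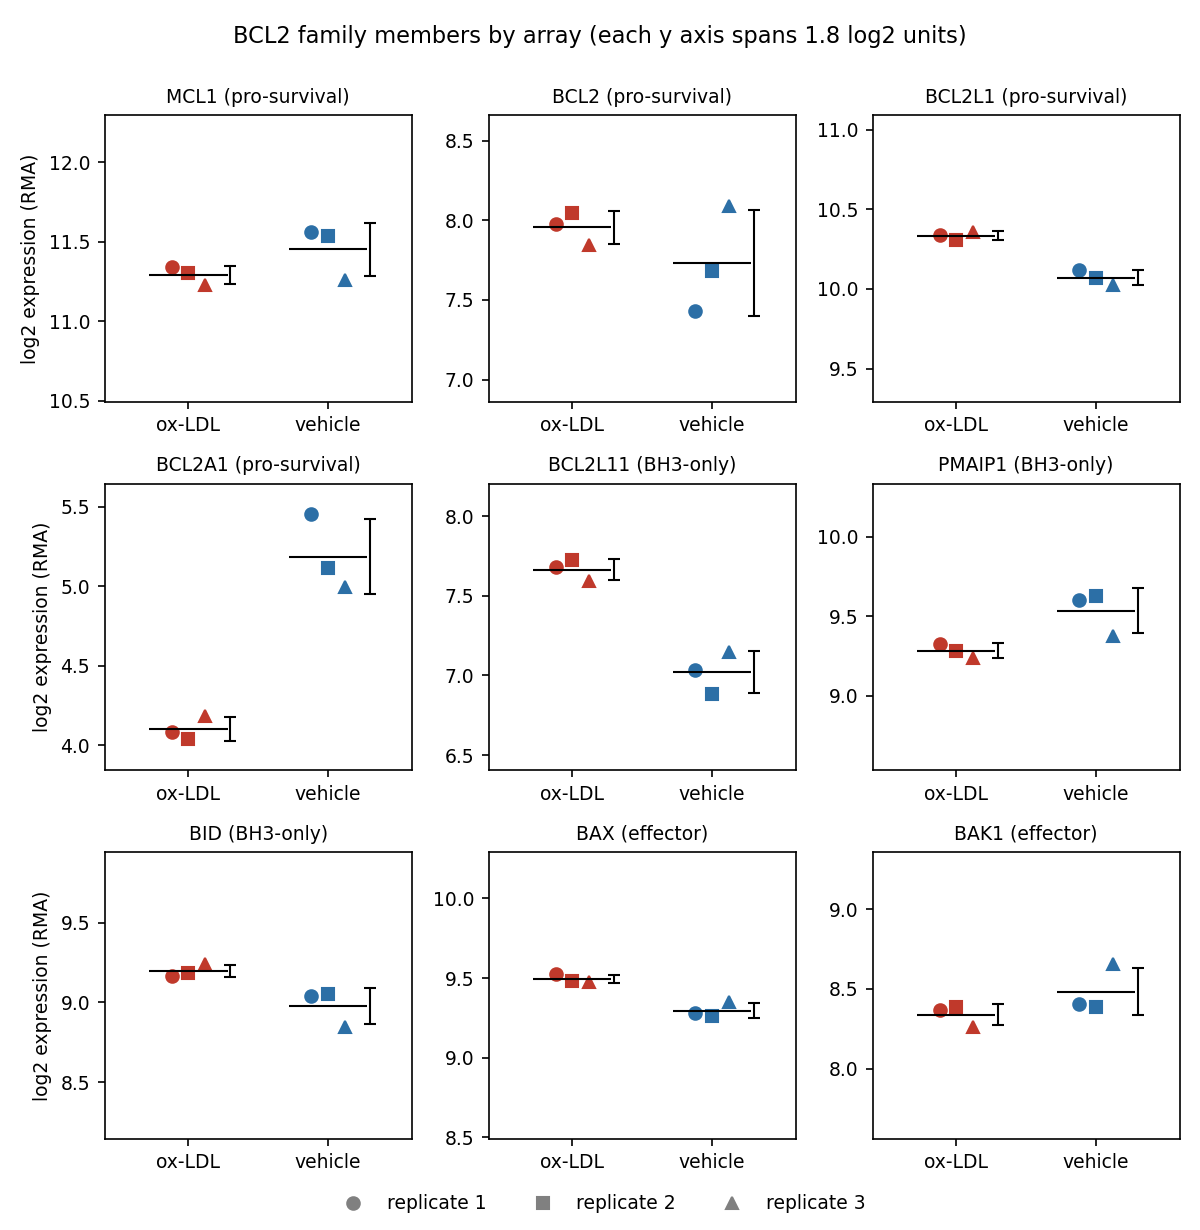
Log2 expression of the 9 members on each array, ox-LDL left of vehicle, with the group mean as a line and the SD beside it (n = 3 each). BCL2L11 sits between 7.59 and 7.72 on the ox-LDL arrays and between 6.89 and 7.15 on the vehicle arrays, and the BCL2 points of the vehicle group are the most scattered.

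The promoters of these genes are shown because BCL2L11 and BCL2A1 were the members that passed, in opposite directions. RefSeq (GRCh38.p14) places the BCL2L11 window at chr2:111120664-111120963 on the plus strand and the BCL2A1 window at chr15:79971147-79971446 on the minus strand. Each window runs 5′ to 3′ along the gene, from 250 bases before the start site to 50 after it. Capitals mark motif matches on either strand.
BCL2L11: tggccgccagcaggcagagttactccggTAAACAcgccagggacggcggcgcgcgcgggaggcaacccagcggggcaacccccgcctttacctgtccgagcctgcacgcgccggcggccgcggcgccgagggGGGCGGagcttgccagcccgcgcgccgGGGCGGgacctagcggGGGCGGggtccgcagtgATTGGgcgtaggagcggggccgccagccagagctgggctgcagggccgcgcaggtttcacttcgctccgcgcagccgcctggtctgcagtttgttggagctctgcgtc
BCL2A1: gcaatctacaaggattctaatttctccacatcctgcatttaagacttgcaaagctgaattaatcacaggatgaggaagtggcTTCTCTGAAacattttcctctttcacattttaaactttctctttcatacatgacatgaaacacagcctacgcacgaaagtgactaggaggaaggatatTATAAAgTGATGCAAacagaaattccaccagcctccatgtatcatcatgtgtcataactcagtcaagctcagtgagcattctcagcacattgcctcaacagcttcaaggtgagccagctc

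The BCL2L11 window was rich in G and C (74.7%) and held 39 CpG dinucleotides, whereas the BCL2A1 window had 41.0% G and C and 2 CpG dinucleotides. Over all 35116 promoter windows of that table the medians were 58.7% and 14. In BCL2L11 the capitals are a forkhead core (TAAACA, found in 12.3% of all windows), 3 GC boxes (GGGCGG, in 45.0%) and, on the opposite strand, a CCAAT box (CCAAT, in 34.6%). In BCL2A1 they are a STAT-type palindrome (TTCNNNGAA, in 7.66%), a TATA box (TATAAA, in 11.5%) and a C/EBP-ATF composite element (TGATGNAA, in 3.62%). The TATAAA match begins at -70 from the start site, and whether it acts as a TATA box was not tested. None of these matches overlapped another. The table held windows of 9 of the 10 genes, all but MCL1. The composite element was found in no other member, while the forkhead core was also in a BID window and the TATA box in a BCL2L1 window. Matches to the NF-kB consensus (in 11.3% of all windows) and the cAMP response element (TGACGTCA, in 1.85%) occurred in none of these windows. The AP-1 site (TGANTCA, in 7.71%) was found among the members in BBC3 alone, and the p53 consensus (in 6.63%) in BAK1 alone. A match describes letters and does not show that a factor binds there.

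Among the BH3-only genes, BCL2L11 had log2 values of 7.68, 7.72 and 7.59 with ox-LDL and 7.03, 6.89 and 7.15 with vehicle. All 3 ox-LDL arrays lay above all 3 vehicle arrays. The means were 7.66 ± 0.07 with ox-LDL and 7.02 ± 0.13 with vehicle (SD, n = 3 each), a log2 difference of 0.64 (SE 0.09, 95% confidence interval 0.43 to 0.86, limma adjusted p = 0.011). Without the third vehicle array the difference was 0.70 (limma adjusted p = 0.00584). Leaving out any 1 ox-LDL array ended the call, with limma adjusted p of 0.0667, 0.069 and 0.053 without replicates 1, 2 and 3, while the difference stayed between 0.61 and 0.68. The probe set was annotated to 18 RefSeq transcripts, so the long and short splice forms of BIM, which differ in potency, were read together.

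PMAIP1 encodes NOXA, a BH3-only protein that binds MCL1 and BFL-1 selectively. It had log2 values of 9.33, 9.28 and 9.24 with ox-LDL and 9.60, 9.63 and 9.37 with vehicle. Every ox-LDL array was below every vehicle array, the third vehicle array being the nearest to them. The log2 difference was -0.25 (SE 0.09, 95% confidence interval from -0.47 to -0.04) and did not pass (limma adjusted p = 0.143), but without the third vehicle array it was -0.33 and passed (limma adjusted p = 0.0227). The 2 BH3-only genes BCL2L11 and PMAIP1 thus differed in sign.

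BID, whose product links death receptors to mitochondria once caspase-8 has cut it, had log2 values of 9.17, 9.19 and 9.24 with ox-LDL and 9.04, 9.05 and 8.85 with vehicle. The groups did not overlap, and the lowest value was that of the third vehicle array. The log2 difference was 0.22 (SE 0.08, 95% confidence interval from 0.02 to 0.42) and did not pass (limma adjusted p = 0.16), nor did the 0.15 found without the third vehicle array (limma adjusted p = 0.142). Cleavage of BID is an event of the protein that arrays do not measure.

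Neither effector passed. BAX had log2 values of 9.52, 9.48 and 9.48 with ox-LDL and 9.28, 9.26 and 9.35 with vehicle, with no overlap. Its log2 difference of 0.20 (SE 0.07, 95% confidence interval from 0.04 to 0.36), or 1.15-fold, did not pass (limma adjusted p = 0.131). Without the third vehicle array it was 0.23 (limma adjusted p = 0.0522). BAK1, the effector that resides in the mitochondrial membrane of healthy cells, had log2 values of 8.36, 8.39 and 8.26 with ox-LDL and 8.41, 8.39 and 8.66 with vehicle. These groups overlapped, and the third vehicle array was the highest. Its log2 difference was -0.15 (SE 0.10, 95% confidence interval -0.37 to 0.08, limma adjusted p = 0.368), or -0.06 without the third vehicle array.

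BCL2A1 was the pro-survival member that passed. It had log2 values of 4.08, 4.04 and 4.18 with ox-LDL and 5.45, 5.11 and 4.99 with vehicle, and the groups did not overlap. The means were 4.10 ± 0.08 with ox-LDL and 5.19 ± 0.24 with vehicle (SD, n = 3 each, limma adjusted p = 0.0056). It passed with any 1 array left out, while both filters on dim probe sets removed it before testing. BFL-1 is known chiefly from blood cells and as a product of NF-kB activity.

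These values of BCL2A1 were dim, and the -1.08 by which its measured means differ is not a measured size of change in its transcript. On the ox-LDL arrays 76.6%, 72.9% and 78.9% of the negative control probe sets were at or below it, and on the vehicle arrays 96.7%, 93.5% and 93.3%. It exceeded the 95th percentile of the negative controls on 0 of 3 ox-LDL arrays and 1 of 3 vehicle arrays. For this reason no fold change is given: the vehicle mean minus the mean of that percentile over the ox-LDL arrays was -0.015 on the log2 scale. Of the 612 negative controls, 1 had a difference at or below that of BCL2A1, and their median difference was 0.07. The other 8 members were above the percentile on all 6 arrays.

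**Figure D2:**
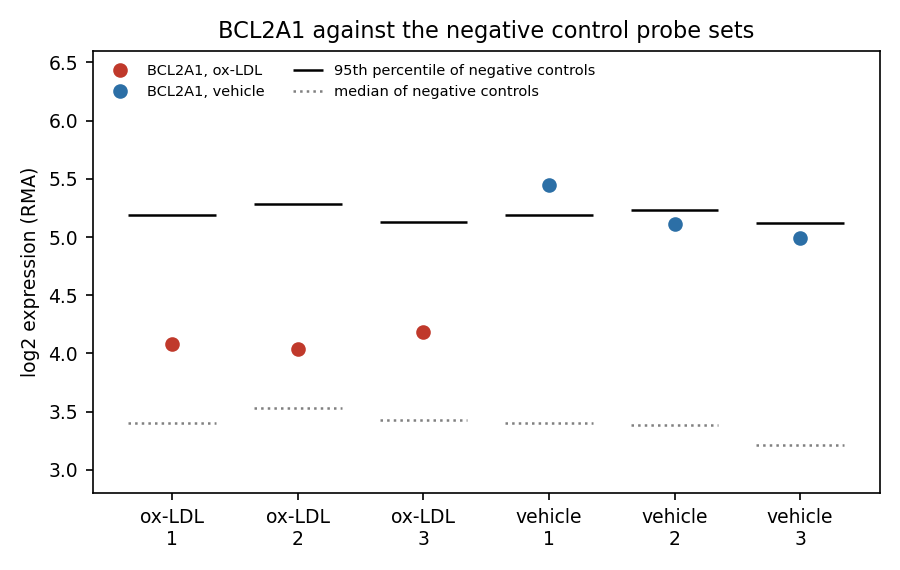
Log2 expression of BCL2A1 on each array (points) beside the 95th percentile (solid line) and the median (dotted line) of the 612 negative control probe sets of that array, with the ox-LDL arrays on the left. BCL2A1 lies at 4.04 to 4.18 on the ox-LDL arrays and at 4.99 to 5.45 on the vehicle arrays, and crosses the solid line on 1 vehicle array.

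BCL2L1 encodes BCL-xL in its long splice form and a pro-death protein in its short form, which the probe set does not separate. Its log2 values were 10.34, 10.30 and 10.36 with ox-LDL and 10.12, 10.07 and 10.02 with vehicle. The groups did not overlap, and each was narrow, with an SD of 0.03 with ox-LDL and 0.05 with vehicle. The log2 difference of 0.26 (SE 0.07, 95% confidence interval from 0.10 to 0.43), or 1.201-fold, did not pass (limma adjusted p = 0.0683). It did pass without the third vehicle array, at a difference of 0.24 (limma adjusted p = 0.0472).

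MCL1, a short-lived pro-survival protein whose gene also yields a short pro-death form, had log2 values of 11.34, 11.30 and 11.23 with ox-LDL and 11.56, 11.54 and 11.26 with vehicle. The groups overlapped through the third vehicle array. The log2 difference was -0.16 (SE 0.10, 95% confidence interval -0.40 to 0.08, limma adjusted p = 0.342), -0.26 without that array (limma adjusted p = 0.0508) and -0.11 without vehicle replicate 1. Much of the control of MCL1 is known to act on the stability of its protein, which was not measured.

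BCL2, the founding member of the family, had log2 values of 7.98, 8.05 and 7.84 with ox-LDL and 7.43, 7.68 and 8.09 with vehicle. The vehicle arrays were more scattered (SD 0.33) than the ox-LDL arrays (SD 0.10), and the groups overlapped. The log2 difference of 0.22 (SE 0.17, 95% confidence interval -0.17 to 0.62, limma adjusted p = 0.417) was 0.40 without the third vehicle array (limma adjusted p = 0.0589) and 0.07 without the vehicle array of replicate 1.

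Taken by role, the 4 pro-survival members had 2 positive and 2 negative log2 differences, from -1.08 to 0.26 with a median of 0.03, or 0.22 without the dim BCL2A1. The 5 pro-death members had 3 positive and 2 negative log2 differences, from -0.25 to 0.64 with a median of 0.20. Over all probe sets the median difference was -0.03, with quartiles at -0.18 and 0.14. Neither role moved in 1 direction. Without the third vehicle array 2 members passed upward, BCL2L11 and BCL2L1, and 2 downward, BCL2A1 and PMAIP1. Each direction then held a pro-survival and a pro-death gene, but the pro-survival gene passing downward was the dim BCL2A1. In that fit 6.76% of all probe sets passed upward and 5.69% downward.

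**Figure D3:**
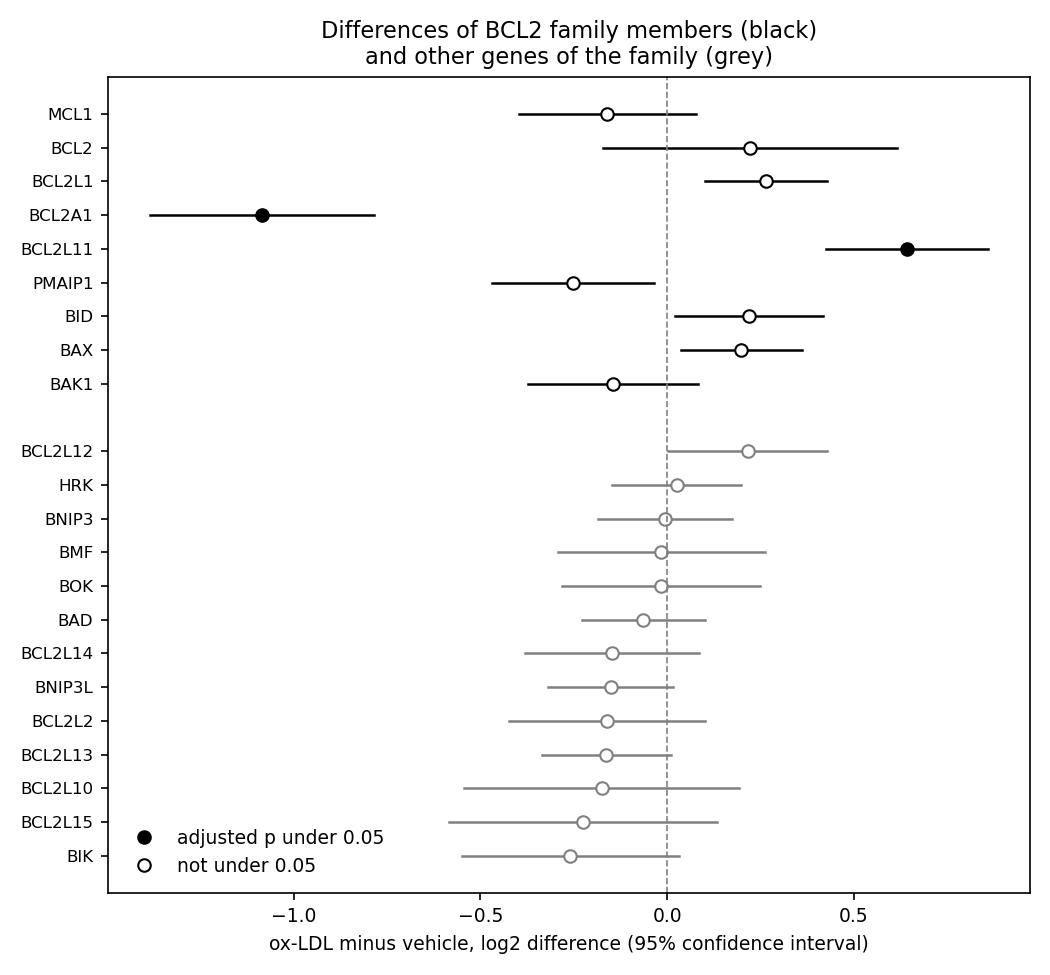
Log2 differences (ox-LDL minus vehicle) with 95% confidence intervals for the 9 members (black) and 13 other genes of the family (grey); filled points passed at an adjusted p under 0.05. BCL2L11 at 0.64 and the dim BCL2A1 at -1.08 are the filled points, and the other genes of the family lie between -0.26 and 0.22.

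BIM acts by occupying pro-survival proteins, so the level of BCL2L11 relative to the 3 pro-survival transcripts above background was followed within arrays. BCL2L11 was chosen for this because it had passed, so these ratios are a description without a test. Against the vehicle mean, the log2 ratio of BCL2L11 to MCL1 was higher by 0.77, 0.85 and 0.79 on the ox-LDL arrays, above the highest vehicle array at 0.32. The log2 ratio to BCL2L1 was higher by 0.39, 0.46 and 0.28, above the highest vehicle array at 0.17. That to BCL2 was higher by 0.42, 0.39 and 0.46, with the highest vehicle array at 0.31. The margin over the nearest vehicle array was thus narrowest for BCL2 and BCL2L1.

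**Figure D4:**
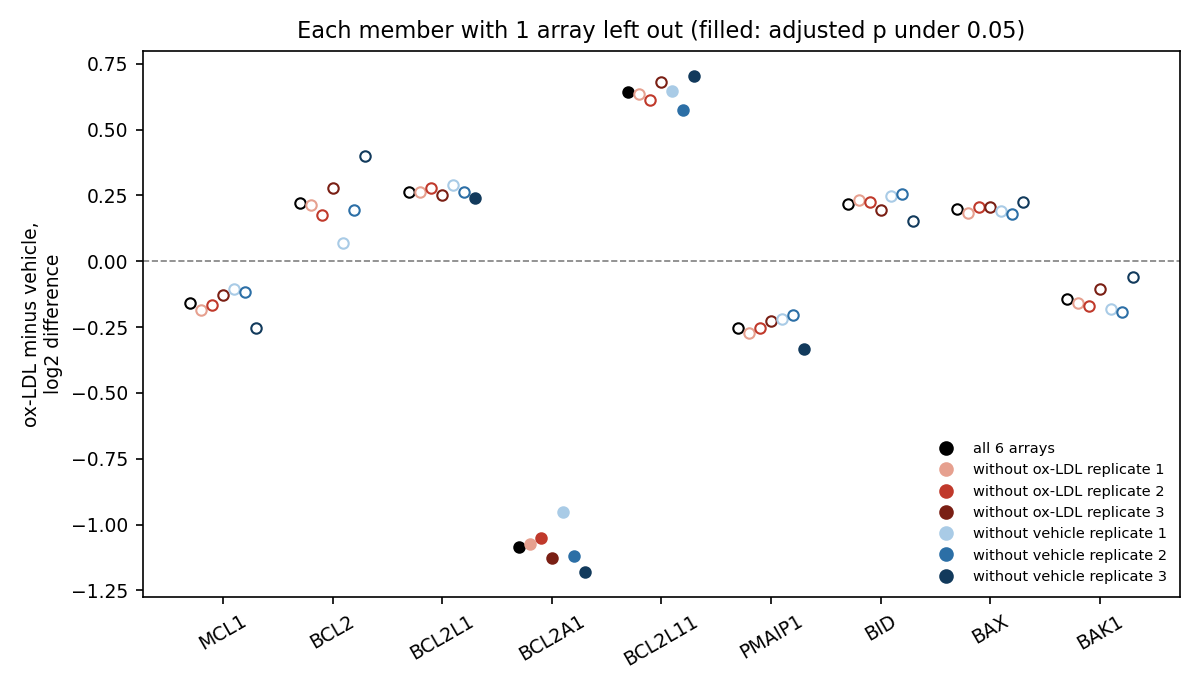
Log2 differences (ox-LDL minus vehicle) of the 9 members with all 6 arrays (black) and with each array left out in turn; filled points passed at an adjusted p under 0.05. BCL2A1 is filled throughout, BCL2L11 is open without any 1 ox-LDL array, and BCL2L1 and PMAIP1 are filled only without the third vehicle array.

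The genes with array profiles most like those of the members that passed were found by the root mean square difference of the 6 log2 values, each gene's mean subtracted. For BCL2A1 they were LOX, a lysyl oxidase that crosslinks collagen, TSPYL2, and CREBRF, a regulator of the transcription factor CREB3 (0.04, 0.05 and 0.05), whose own log2 differences were -1.13, -1.10 and -1.04. For BCL2L11 they were IFFO2, LYPD6, which modulates Wnt signalling, and CCBE1, a secreted protein of lymphatic growth (0.04, 0.06 and 0.06), with log2 differences of 0.67, 0.63 and 0.75. The likeness of these differences to those of the members follows from how the genes were chosen and is no separate result. The BCL2A1 profile used was that of a dim signal.

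Of 13 other BCL2 family genes, 13 were measured and none passed in limma, with 1 at an unadjusted p under 0.05. Over all probe sets these shares were 6.77% and 26.1%. With array weights 2 passed downward, BCL2L13 and BIK, and with an intensity trend 1 did, BNIP3L. By log2 difference 11 were negative and 2 positive, with a median of -0.15, while 44.9% were positive over all probe sets. The negative signs of BMF, BOK and BNIP3 rested on the third vehicle array, at 6.94, 8.54 and 10.11. Their ox-LDL means (6.74, 8.30 and 10.00) lay above the other vehicle arrays. BCL2L13, BNIP3L and BIK stayed negative with any 1 array left out. BCL2L14 exceeded the percentile of the control probe sets on 1 array and BCL2L15 on 0. The split of signs thus depended in part on 1 array. BCL2L12 had the smallest p (log2 difference 0.22, limma adjusted p = 0.187), followed by BCL2L13 (-0.16), the mitophagy receptor BNIP3L (-0.15) and the BH3-only gene BIK (-0.26, or -0.14 without vehicle replicate 2). The pro-survival gene BCL2L2 had log2 values of 8.57, 8.49 and 8.49 with ox-LDL and 8.58, 8.55 and 8.91 with vehicle, with the third vehicle array again apart; it was named after its values were seen.

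Downstream of the family, 0 of 10 genes of cytochrome c release and the apoptosome passed in limma, with 4 at an unadjusted p under 0.05, against the same 6.77% and 26.1% over all probe sets. Array weights called 3 of them upward, an intensity trend 2, and the fit of probe sets above the median level 1, VDAC1. Their median log2 difference was 0.18, and 9 of 10 differences were positive, as were 44.9% of those over all probe sets. VDAC1 and VDAC3, which form channels of the outer membrane, had log2 differences of 0.29 and 0.56, DIABLO, which binds inhibitors of apoptosis once released, 0.18 and MTCH2, a receptor for cleaved BID, 0.17. For VDAC3 the third vehicle array was low, and without it the log2 difference was 0.30 and passed (limma adjusted p = 0.0284).

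Among 9 measured caspases 1 passed, against 6.77% of all probe sets, and 5 had an unadjusted p under 0.05, against 26.1%. CASP4, an inflammatory caspase that senses bacterial lipopolysaccharide, fell. It had log2 values of 11.11, 11.22 and 11.23 with ox-LDL and 11.54, 11.48 and 11.53 with vehicle, a difference of -0.33 (SE 0.07, limma adjusted p = 0.0419). That call was lost when any 1 array other than the third vehicle array was left out, and with equal array medians (limma adjusted p = 0.0571). The other 8 did not pass, among them CASP2 (log2 difference 0.29), CASP1 (0.79) and CASP6 (0.39). On the third vehicle array CASP1 read 4.94, under that array's percentile of 5.12, so its 0.79 is not a measured size of change. CASP1 and CASP2 passed without the third vehicle array, at log2 differences of 0.52 and 0.30. All 3 passed upward with array weights and with an intensity trend, and CASP2 did with equal array medians and with an unmoderated t statistic. CASP2 and CASP6 also passed upward among probe sets above the median level, and CASP2 among those above the negative controls. The median of the caspases was 0.11. None of the 6 measured inhibitors of apoptosis passed in limma, with 2 at an unadjusted p under 0.05, where 26.1% of all probe sets were; array weights called NAIP upward, and XIAP, named after its values were seen, passed downward without the third vehicle array. Their median log2 difference was 0.01, and those with the smallest p were NAIP (0.32), BIRC7 (-0.23), BIRC5, which encodes survivin (0.12), and BIRC2 (-0.08). Single vehicle arrays moved both of the last named: BIRC5 was 0.19 without replicate 3 and 0.056 without replicate 2, and BIRC2 was -0.24 without replicate 3 and -0.0032 without replicate 1.

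Of 12 measured death receptors, ligands and adaptors, 1 rose and 1 fell, against 3.48% and 3.29% of all probe sets, and the median log2 difference was 0.02. TNFRSF21, which encodes death receptor 6, had log2 values of 8.04, 8.06 and 8.10 with ox-LDL and 7.16, 7.41 and 7.28 with vehicle. Its groups were far apart, with a difference of 0.79 (SE 0.09, limma adjusted p = 0.00435), and it passed with any 1 array left out. TNFRSF10B, a receptor for the death ligand TRAIL, had log2 values of 8.62, 8.55 and 8.61 with ox-LDL and 9.24, 9.11 and 9.19 with vehicle. It fell by 0.59 on the log2 scale (SE 0.07, limma adjusted p = 0.00661), and did not pass without the ox-LDL array of replicate 2 (limma adjusted p = 0.0521). TNFSF10, which encodes TRAIL, and TNFRSF10A, its other death receptor, had log2 differences of 0.40 and -0.17 and did not pass.

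Of 12 measured transcription factors known to act on BCL2 family genes, 2 rose and 4 fell, against 3.48% and 3.29% of all probe sets, with a median log2 difference of -0.16. The list was written with earlier results of these data known. DDIT3, the stress factor CHOP, which is known to induce BCL2L11, had log2 values of 7.61, 7.32 and 7.45 with ox-LDL and 9.45, 9.46 and 9.44 with vehicle. It fell by 1.99 (SE 0.09) on the log2 scale, and CEBPB and ATF4 fell by 1.05 (SE 0.09) and 0.50 (SE 0.07). E2F1, which can raise the transcription of several BH3-only genes, rose by 0.64 (SE 0.07). JUN, an AP-1 subunit that can induce BCL2L11, rose by 0.49, and NFKB1, a subunit of NF-kB, fell by 0.46, both named because they passed. ATF4 lost its call without any 1 ox-LDL array, and JUN and NFKB1 lost theirs when any 1 array other than the third vehicle array was left out. The JUN call was also lost with an unmoderated t statistic (adjusted p = 0.0662). No relation between these factors and the members was tested.

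None of the 7 measured ubiquitin ligases and deubiquitinases of MCL1 passed in limma, against 6.77% of all probe sets. At an unadjusted p under 0.05 there were 0, against 26.1%, and 0 passed in any of the alternative fits. With only 7 genes, these counts are not set apart from those shares. The median log2 difference of the 7 genes was 0.04. BTRC had the smallest p (log2 difference 0.16, limma adjusted p = 0.211), and USP13 (0.46), FBXW7 (0.20) and CUL5 (0.04) followed. Without the third vehicle array, which read 7.04 for USP13 against 8.16 and 8.10 on the other vehicle arrays, its difference was 0.095 (0.16 with array weights), and that of CUL5 was 0.013. The third vehicle array was low for FBXW7, at 6.02 against 6.75 and 6.80 on the other vehicle arrays, and the sign turned without it (-0.06) and with array weights. The sign of CUL5 turned after cyclic loess.

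**Figure D5:**
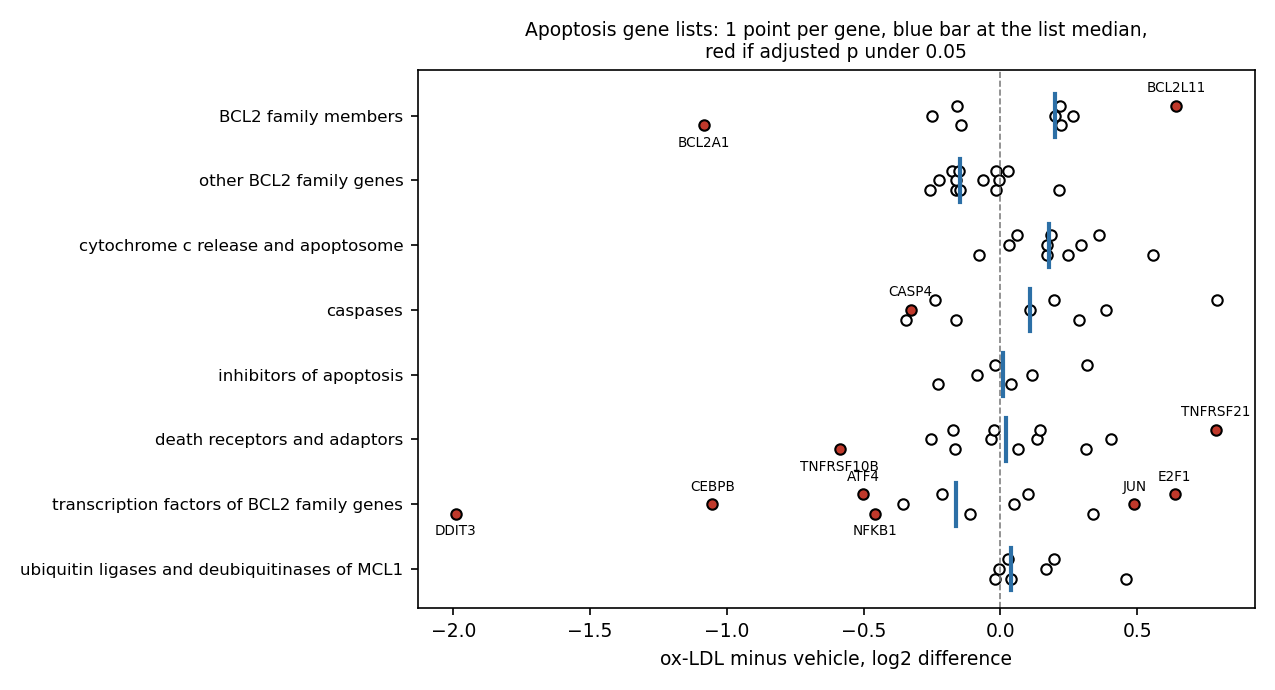
Log2 differences (ox-LDL minus vehicle), 1 point per gene, of the 9 BCL2 family members and 7 lists of apoptosis genes, with a blue bar at each list's median and red points for an adjusted p under 0.05. The transcription factors hold 6 of the red points, DDIT3 at -1.99 the farthest left, and the list medians run from -0.16 to 0.20.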

How the data were processed

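Total RNA of T24 cells was extracted with Trizol, and biotinylated cDNA made from 500 ng of RNA was hybridised to 6 arrays, per the labels' protocols. The authors deposited log2 values made with RMA, per the submitters' processing notes, its settings and the genome build being not given in the sources used here. RMA equalises arrays, which hides any change in RNA content per cell, and it compresses dim values. Precision is limited by the number of arrays.

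Of 24350 probe sets, 2902 controls were left out, and 21448 were tested with limma 3.58.1 in R 4.3.3 (lmFit, eBayes, two-sided, Benjamini-Hochberg). Groups follow the titles. On simulated data of 21448 probe sets with 100 changed at each size, 39% of 1.5-fold and 75% of 2-fold changes were recovered, with 1 false call among 115. Noise was drawn independently per probe set with the same SD in both groups, and no array was made to stand apart. These rates therefore do not give the power or error of the real comparison. A gene with several probe sets (20 genes) was read from the brightest. Members are all named, with the 4 genes of smallest p in each of 7 lists. Members and lists were chosen with earlier results of these data known. Alternatives covered normalization, filters, variance models, array weights, the replicate number as a block and each array left out. Figures used matplotlib 3.10.9.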

Additional observations from a re-analysis of the deposited data

How the results depend on the processing

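The deposited values cover 3 arrays a group, and signal over background limits BCL2A1, which the 2 filters on dim probe sets removed. BCL2A1 passed in all 13 alternatives that tested it (log2 differences -1.18 to -0.95), and BCL2L11 in 11 of 15 (0.57 to 0.73). The 4 losses were the fits without 1 ox-LDL array and the replicate block. Fits without 1 vehicle array hold as few samples and kept the call (limma adjusted p = 0.0403, 0.0384 and 0.00584 without replicates 1, 2 and 3). The cause of the losses was not tested. BCL2L1 passed in 6 of 15 alternatives, BAX and PMAIP1 in 2 each, MCL1 in 1, and BCL2, BID and BAK1 in 0. No member changed sign.

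Members passing upward numbered 1, but 3 among probe sets above the median level, 2 among those above the negative controls, 2 with an intensity trend and robust fit, 3 with array weights, 2 with an unmoderated t statistic, 0 with the replicate block, and 0 to 2 with 1 array left out. Members passing downward numbered 1, but 0 under either filter, 3 with array weights, and 1 to 2 with 1 array left out. Genes of the 7 lists passing upward numbered 3, but 6 above the median level, 8 with the intensity trend, 11 with array weights and 2 to 6 with 1 array left out. Those passing downward numbered 6, but 3 with the replicate block and 2 to 8 with 1 array left out. Of all probe sets, 3.48% passed upward with all 6 arrays and 6.76% without vehicle replicate 3. Downward the shares were 3.29% and 5.69%. Shares for the other alternatives are not given, so counts from those fits, here and above, cannot be read as particular to these genes. The pro-survival median of 0.03 was 0.22 under either filter and -0.018 to 0.061 with 1 array left out. The pro-death median of 0.20 was 0.23 with equal array medians, 0.15 after a second quantile normalization, 0.14 after cyclic loess, 0.16 with array weights and 0.15 to 0.20 with 1 array left out. Signs turned for CUL5 after cyclic loess (-0.022) and for FBXW7 with array weights (-0.032) or without vehicle replicate 3 (-0.056, and up to 0.33 without another array). The cause of these shifts was not tested.

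Same-numbered arrays did not deviate together (correlations of deviations -0.01, 0.03 and 0.02), so the numbers were not taken to pair the samples. With the replicate block BCL2L11 kept its difference of 0.64 at a limma adjusted p of 0.0546, and ATF4, JUN, NFKB1 and CASP4 also lost their calls (adjusted p = 0.0531, 0.0576, 0.0703 and 0.121).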
